A study of Homo sapiens with 13 samples.

Results

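The genes described here are 8 genes of cholesterol synthesis and its control: HMGCS1, IDI1, FDFT1, SQLE, LSS, DHCR7, INSIG1 and SREBF2. They were chosen by name, as every row of the deposited libraries that carries one of these gene names, and they are 8 of 14575 genes with at least 1 read. Their usual description includes uptake, but none of the 8 is an uptake receptor. All libraries come from the HEK293 Flp-in TREX line, which derives from human embryonic kidney and has a site for the integration of an inducible plasmid. In every library doxycycline at 2 µg/ml induced an α-amanitin resistant Rpb1, the largest subunit of RNA polymerase II (Pol II), from a pcDNA5 plasmid, and α-amanitin at 2.5 µg/ml was then present for 42 hr to inhibit the endogenous enzyme. The labels give 24 hr of doxycycline, whereas the methods of the study give 12 to 16 hr before α-amanitin. The library titles mark the induced Rpb1 as carrying an Avitag in both groups. It was wild type in 5 libraries and carried R749H, a funnel substitution that slows elongation, in 4 libraries. The comparison asks whether the amount and the 3’ ends of the mRNAs of these genes differ between R749H and wild-type cells. The wild-type and R749H forms were carried by separate cell lines. An effect of Pol II speed therefore cannot be told apart from other differences between the lines.

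Cells make cholesterol from acetyl-CoA by way of mevalonate, isoprenoid diphosphates, squalene and lanosterol. When sterols in the endoplasmic reticulum are low, the membrane-bound transcription factor encoded by SREBF2 is carried by SCAP to the Golgi, cut by proteases and released to activate the genes of the pathway, and when sterols are high, INSIG proteins hold it back. INSIG1 is itself a target of this factor, so that the system forms a feedback loop.

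Each read of 3’ READS marks the 3’ end of 1 polyadenylated RNA, and levels are therefore not divided by gene length. Levels are given in RPM, reads per 1000000 reads of the library, after scaling by TMM, a method that sets libraries against each other through the bulk of their genes. The wild-type libraries held between 2479851 and 10135014 reads and the R749H libraries between 3863468 and 6475987. R749H replicate 3 stood apart, where only 6.60% of isoforms rested on 1 read, while the share elsewhere was between 30.05% and 36.2%. The HEK293 markers VIM, KRT8, KRT18 and LIN28B were present in every library, NEFM was at or near 0, and NEFL was not listed. VIM was lower in R749H (61.3 ± 5.3 against 100.3 ± 23.4 RPM, SD, n = 4 and 5) and LIN28B was higher (48.2 ± 10.0 against 30.8 ± 2.0). PAX2, at 0 to 25 reads per library and too low for the test, was at 1.25 to 4.12 RPM in wild type and at 0 to 0.872 RPM in R749H. Its groups did not overlap, as for 19.6% of the genes that could be tested. The summed level of the hepatocyte markers was 0.939 to 3.16 RPM in wild type and 1.84 to 5.15 in R749H, that of the fibroblast markers at most 0.825 and 0.523, and that of the leukocyte markers at most 0.535 and 0.230. POLR2A, the gene of Rpb1, was 4.28-fold higher in R749H, but whether the plasmid RNA shares its 3’ end is not given in the sources used here, so this does not check the labels. The part of these differences in the results below was not tested. Across all genes, limma with Benjamini-Hochberg adjustment called 2238 of 9494 genes tested (963 higher and 1275 lower in R749H), and the median gene differed by -0.09 on the log2 scale. With the authors' scaling alone the median moved to -0.41, and 3060 genes were called, of which 432 were higher.

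Among the 8 genes, IDI1 rose in R749H cells, and no other gene passed the test. The fit could be made for 7 of the 8 genes, since SQLE had too few reads, and 1 of 7 was called, whereas 23.6% of all genes tested were called. At an unadjusted p under 0.05 there were 3 of 7 (IDI1, DHCR7 and SREBF2), against 37.3% of all genes. The 7 genes had a median log2 difference of 0.09, against -0.09 over all genes tested, and 5 of the 7 estimates were above 0.

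**Figure D1:**
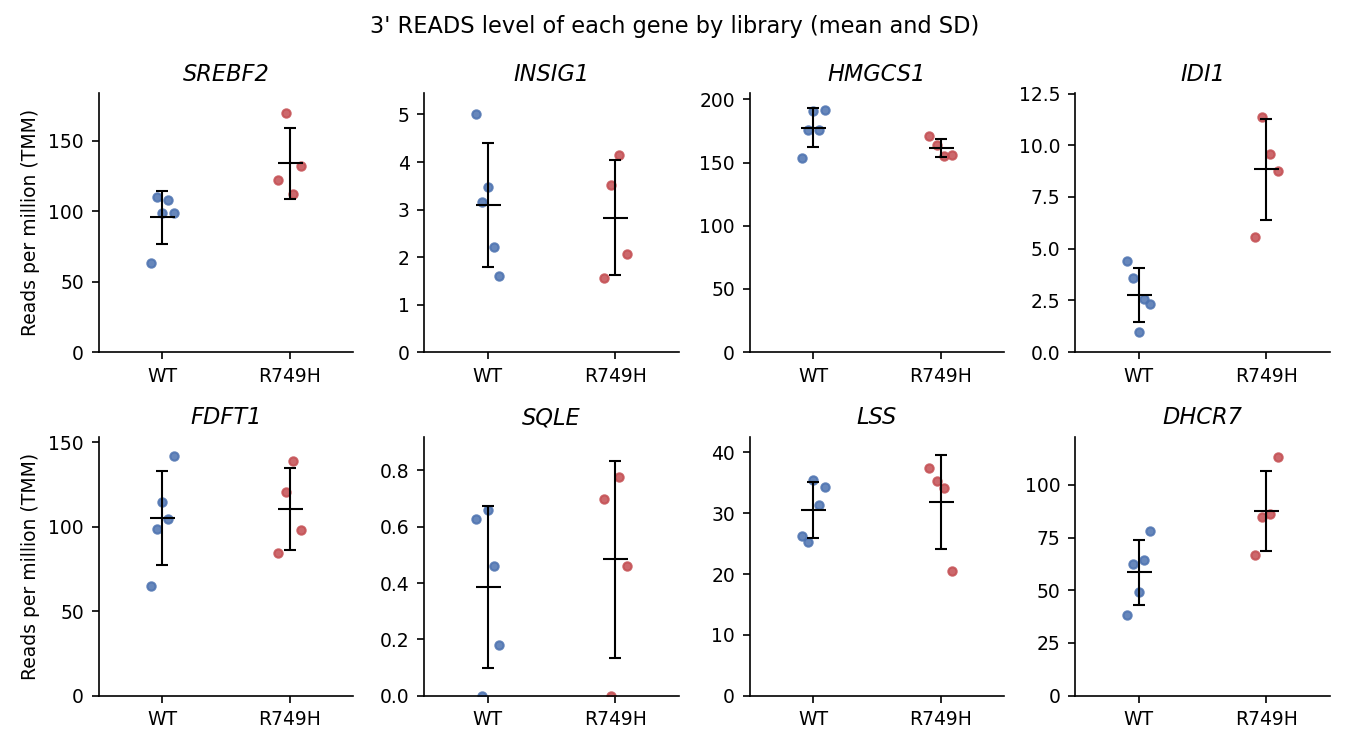
Level of each of the 8 genes in every library, in RPM after TMM scaling, for 5 wild-type (blue) and 4 R749H (red) libraries, with the mean and SD in black and a separate axis for each gene. All 4 R749H libraries lie above all 5 wild-type libraries for IDI1 and SREBF2, and the groups overlap for the other 6 genes.

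The regulators come first. SREBF2 (chromosome 22, plus strand) encodes the transcription factor of the pathway. Its level was 62.9, 109.8, 98.8, 108.2 and 98.5 RPM in wild-type replicates 1 to 5 and 122.1, 169.4, 112.0 and 132.0 in R749H replicates 1 to 4. The groups did not overlap, as for 19.6% of all genes tested, although R749H replicate 3 was only slightly above the highest wild-type library. The means were 95.7 ± 19.0 (SD, n = 5) and 133.9 ± 25.1 (n = 4), and the log2 difference of 0.49 ± 0.20 (SE) did not pass limma (adjusted p = 0.0834). It passed with DESeq2 (adjusted p = 0.0353) and after thinning every library to the smallest (adjusted p = 0.0467), and it was 0.17 with the authors' scaling alone (adjusted p = 0.463).

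INSIG1 (chromosome 7, plus strand), which encodes the protein that retains the SREBP complex in the endoplasmic reticulum, was rare, at 9 to 24 reads per library. Its level was 3.09 ± 1.30 RPM in wild type and 2.83 ± 1.21 in R749H (SD, n = 5 and 4), and the log2 difference was -0.12 ± 0.44 (SE, limma adjusted p = 0.863). A difference of the size of this standard error was not detectable at this depth.

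HMGCS1 and IDI1 act in the mevalonate part of the pathway. HMGCS1 (chromosome 5, minus strand) encodes the synthase that forms HMG-CoA and had 491 to 1902 reads per library. Its level was 177.5 ± 15.4 RPM in wild type and 161.4 ± 7.4 in R749H (SD, n = 5 and 4), and the log2 difference was -0.13 ± 0.16 (SE, limma adjusted p = 0.576). With the authors' scaling alone it passed as lower, at -0.45 (adjusted p = 0.0275), beside the median gene at -0.41 on that scale.

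IDI1 (chromosome 10, minus strand) encodes the isomerase that interconverts isopentenyl and dimethylallyl diphosphate. It had 14, 17, 6, 28 and 13 reads in wild-type replicates 1 to 5, or 4.38, 3.58, 0.990, 2.59 and 2.32 RPM. R749H replicates 1 to 4 had 32, 42, 37 and 38 reads, or 5.58, 11.4, 9.59 and 8.76 RPM. Every R749H library was above every wild-type library, and the closest pair was R749H replicate 1 and wild-type replicate 1. The fitted change was 3.34-fold, a log2 difference of 1.74 ± 0.40 (SE, limma adjusted p = 0.00555). It was 1.74 without R749H replicate 3 (adjusted p = 0.0093) and lowest, at 1.43, without wild-type replicate 3 (adjusted p = 0.0109). IDI1 lies among 11 tested genes with a stop codon within 5 Mb, of which 0 were called higher and 0 lower, where 23.6% of all genes tested were called. A part of the region in the change was not tested.

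FDFT1 and SQLE act on squalene. FDFT1 (chromosome 8, plus strand), squalene synthase, had 207 to 1134 reads per library, and its level of 105.0 ± 27.9 RPM in wild type and 110.7 ± 24.2 in R749H gave a log2 difference of 0.09 ± 0.22 (SE, limma adjusted p = 0.789). With the authors' scaling alone the sign turned, to -0.23. SQLE (chromosome 8, plus strand), squalene epoxidase, had 0 to 5 reads per library, 12 in all wild-type and 9 in all R749H libraries. It was at 0 in wild-type replicate 2 and R749H replicate 2, where 0 reads allow up to 0.632 and 0.813 RPM, counting error only. No comparison of SQLE was possible at this depth.

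LSS and DHCR7 act on sterols. LSS (chromosome 21, minus strand), lanosterol synthase, was at 30.5 ± 4.6 RPM in wild type and 31.9 ± 7.7 in R749H, and R749H replicate 4 was the lowest library at 20.5. The log2 difference was 0.04 ± 0.22 (SE, limma adjusted p = 0.922), and it was -0.28 with the authors' scaling alone. Of 39 tested genes with a stop codon within 5 Mb of LSS, 9 were called higher and 6 lower. Of the 13 within 1 Mb, 0 were called higher and 5 lower. Over all genes tested, 10.1% were called higher and 13.4% lower. A part of the region in the level of LSS was not tested.

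DHCR7 (chromosome 11, minus strand) encodes the reductase of the last step to cholesterol. Its level was 38.2, 62.4, 49.0, 64.6 and 78.2 RPM in wild-type replicates 1 to 5 and 66.8, 84.8, 86.1 and 113.2 in R749H replicates 1 to 4. Of the R749H libraries, 3 were above all wild-type libraries, and replicate 1 was below wild-type replicate 5. The log2 difference of 0.60 ± 0.22 (SE) was just short of the threshold (limma adjusted p = 0.057). It passed with RLE factors (adjusted p = 0.0461), with DESeq2 (adjusted p = 0.0265), without wild-type replicate 5 (adjusted p = 0.0223) and without R749H replicate 1 (adjusted p = 0.027). It did not pass in the other 7 of 9 fits with a library left out (limma adjusted p up to 0.146). Nor did it pass with edgeR (adjusted p = 0.0529) or after thinning (limma adjusted p = 0.0644). With the authors' scaling alone it was 0.28 (adjusted p = 0.293).

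The other genes of the pathway were taken from 4 lists, of synthesis, of uptake, trafficking and efflux, of SREBP processing and of fatty acid targets of SREBP. Of the 37 genes counted, 32 could be tested, 3 were called higher and 2 lower. These counts leave out some genes of the synthesis and uptake lists that are not reported here. They do not describe the full lists and cannot be set against the share over all genes.

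Among the genes counted in the synthesis list, 2 of 13 tested rose, 0 fell and 11 did not pass. TM7SF2, a sterol C14 reductase, rose by 1.86 ± 0.28 on the log2 scale (SE, limma adjusted p = 0.000266), from 5.14 ± 1.65 to 18.4 ± 3.2 RPM. ACAT2, the cytosolic thiolase at the start of the pathway, rose by 0.81 ± 0.19 (adjusted p = 0.00545), and its groups did not overlap, as for 19.6% of all genes tested.

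Among the genes counted in the uptake, trafficking and efflux list, 0 of 7 tested rose, 1 fell and 6 did not pass. The 0 holds only for these genes and not for the full list. VLDLR, a lipoprotein receptor, fell by 1.79 (limma adjusted p = 0.0201), from 3.81 ± 1.5 to 1.09 ± 0.70 RPM. It had 2 to 38 reads per library, and its groups overlapped. The call was lost without R749H replicate 2 or 4 (limma adjusted p = 0.0629 and 0.053). Only 6 of the fits with a library left out held enough reads to include VLDLR.

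In the SREBP processing list, 0 of 5 genes tested were called, with a median of -0.22. In the fatty acid list, 1 of 7 rose and 1 fell, with a median of -0.41. Over all genes tested, 23.6% were called (10.1% higher and 13.4% lower), and the median was -0.09. Whether these lists differ from all genes was not tested. FASN, fatty acid synthase, rose by 1.31 ± 0.18 on the log2 scale (SE, limma adjusted p = 0.000122), from 259.3 ± 28.4 to 652.7 ± 137.2 RPM. FADS2, a fatty acid desaturase, fell by 0.59 at the threshold itself (limma adjusted p = 0.05 after rounding), and most alternatives lost the call, for example edgeR (adjusted p = 0.0547).

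**Figure D2:**
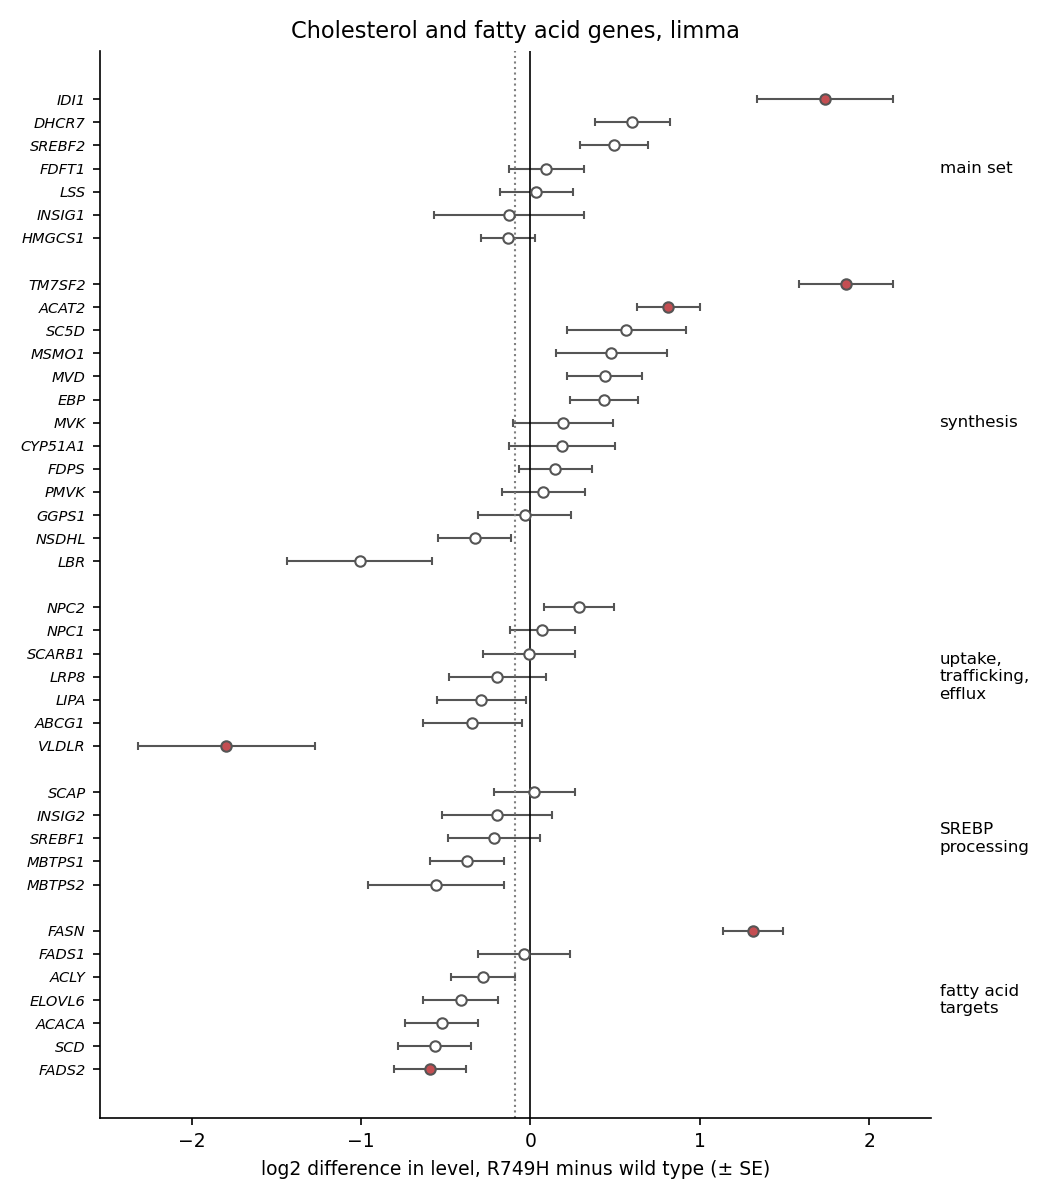
Log2 difference in level (R749H minus wild type, ± SE, limma) of the 7 tested genes of the main set and of the 32 tested genes of the 4 pathway lists. Filled points passed an adjusted p of 0.05, the solid line is 0, and the dotted line is the median of all genes tested at -0.09; TM7SF2, IDI1 and FASN are the genes farthest to the right.

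The 3’ ends of the 8 genes fell into 14 poly(A) sites, groups of major isoforms no more than 24 nt apart. A single site served 3 genes, 2 sites served 4 genes and 3 sites served FDFT1. All leading 3’ ends lay in an annotated UTR of GENCODE on GRCh37, and the stop codons matched the annotation. For HMGCS1 and IDI1 the leading end lay upstream of the canonical transcript end, at +1735 against +3661 nt and at +1161 against +1768 nt from the stop codon, for LSS it lay at +1972 against +2658 nt, and for FDFT1 at +351 against +689 nt. The nearest end of any annotated coding transcript was 1, 8 and 0 nt from these ends of HMGCS1, LSS and FDFT1. For IDI1 it was 607 nt away.

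The poly(A) signal hexamers AATAAA and ATTAAA were searched for on the sense strand in the 30 nt up to each leading end. AATAAA was found at 8 of the 14 sites, ATTAAA alone at 5 and neither at 1, the FDFT1 site at +56. Over all major 3’ ends, 74.6% had either hexamer, and of the 31 major ends of the 8 genes, 29 did. The windows below are those of INSIG1, LSS, IDI1 and DHCR7, which have 2 sites each, read from GRCh37 and ending at the leading 3’ end, with the hexamer in capitals.
INSIG1 at +317, chr7:155100268-155100297, plus strand: ttcattcatgtgATTAAAacaagttgccat
INSIG1 at +1963, chr7:155101914-155101943, plus strand: attttttacttttATTAAAggttcaaaacc
LSS at +1972, chr21:47609046-47609075, minus strand: ctgccttAATAAAcagacattgattccctt
LSS at +2657, chr21:47608361-47608390, minus strand: ctcagtgtgATTAAAaatcagtcatgaaag
IDI1 at +284, chr10:1086843-1086872, minus strand: cgagcaAATAAAacttaatttaatctttgc
IDI1 at +1161, chr10:1085966-1085995, minus strand: gaaaAATAAAaatttatttcttgcaaagtt
DHCR7 at +416, chr11:71146005-71146034, minus strand: tactcttgctaAATAAAagtgggagtgggg
DHCR7 at +962, chr11:71145459-71145488, minus strand: atctttatATTAAActtcccctgttcaaat
Both INSIG1 sites carry ATTAAA, whereas LSS has AATAAA at its upstream site and ATTAAA at its downstream site, and DHCR7 has the same order.

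INSIG1 was the 1 gene that passed the test of mean 3’ end position, of the 7 genes with enough splits to pass, with ends nearer the stop codon in R749H cells, on few reads. The read-weighted mean distance from the stop codon was 1312, 1207, 1166, 1224 and 1599 nt in wild-type replicates 1 to 5 and 825, 990, 733 and 947 nt in R749H replicates 1 to 4. The groups did not overlap, as for 4.58% of all genes with a read in every library, and the means were 1302 ± 175 and 874 ± 117 nt (SD, n = 5 and 4). The difference of -428 nt had p = 0.0159 in a two-sided exact permutation test, the smallest p that the 126 splits allow, with no adjustment over the genes. SQLE had reads in 7 libraries, and its 35 splits could not give a p under 0.0571. With major isoforms alone it was -312 nt (exact permutation p = 0.0794). INSIG1 had 9 to 24 reads per library, under the mean of 20 reads required for the main tests across all genes, so that those tests give no adjusted p for it.

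The INSIG1 site at +1963 held 56.3%, 20.0%, 47.6%, 45.8% and 55.6% of the gene's reads in wild-type replicates 1 to 5 and 22.2%, 23.1%, 25% and 22.2% in R749H replicates 1 to 4. Wild-type replicate 2 was below all R749H libraries and the other wild-type libraries were above them. The site at +317 held 28.7% ± 13.3 and 40.0% ± 5.2 (SD, n = 5 and 4), with overlapping groups.

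**Figure D3:**
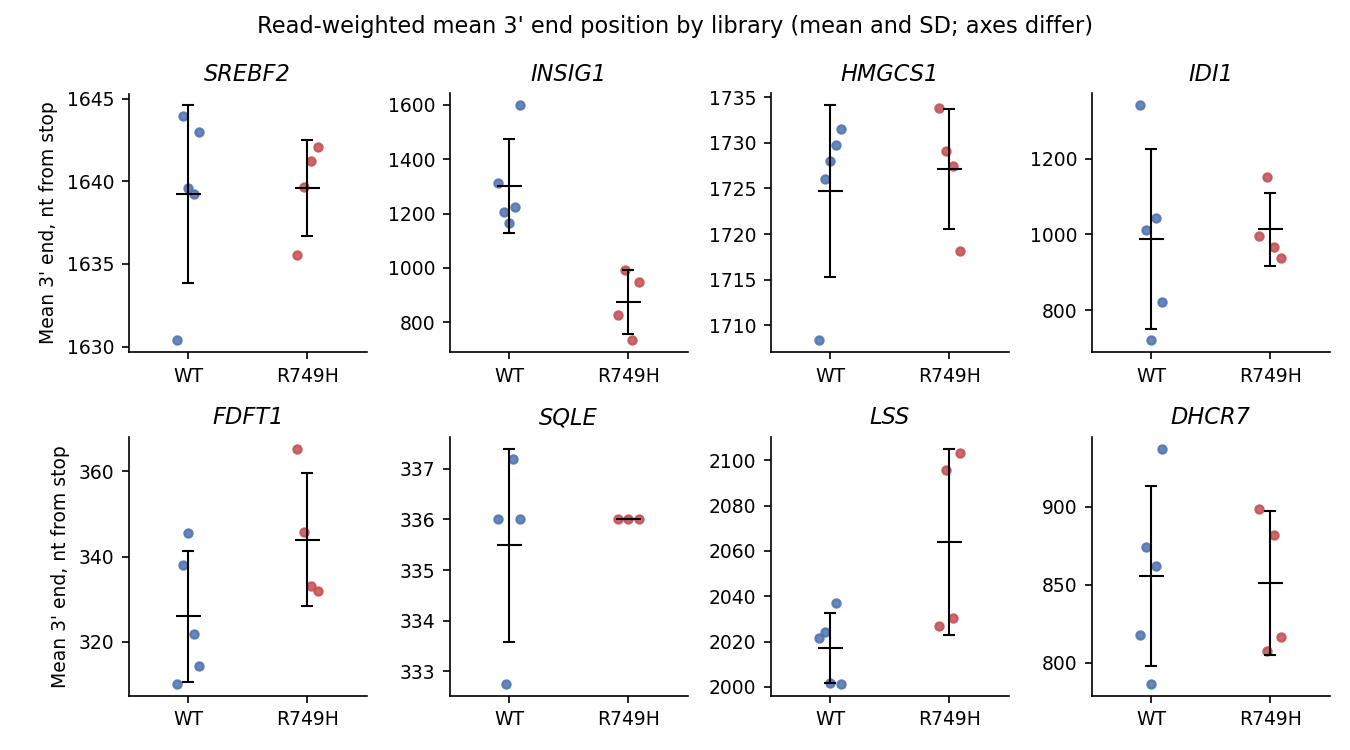
Read-weighted mean distance of the 3’ ends from the stop codon, in nt, of the 8 genes in every library with a read, for wild-type (blue) and R749H (red) libraries, with the mean and SD in black and axes that differ between genes and do not start at 0. The groups are apart for INSIG1, at 1166 to 1599 nt in wild type and 733 to 990 nt in R749H, and overlap for the others.

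For LSS the values lay in the other direction, in part over a few nt within 1 site, and did not pass the test across all genes. The share of its reads downstream of the pooled median position, +1972, was 36.9%, 31.7%, 32.1%, 34.4% and 25.5% in wild-type replicates 1 to 5 and 40.9%, 43.1%, 45.5% and 46.1% in R749H replicates 1 to 4. The groups did not overlap, as for 4.02% of all genes compared, but the log2 odds difference of 0.73 ± 0.19 (SE) did not pass limma across all genes (adjusted p = 0.288). The division at +1972 cuts through 1 site, which runs from +1972 to +1977. The end at +1972 alone held 67.4% ± 4.4 of LSS reads in wild type and 55.3% ± 2.4 in R749H. The end at +1977 held 6.90% ± 1.45 and 10.8% ± 6.9, and the end at +2657 held 3.15% ± 1.39 and 5.58% ± 3.05. The whole site led by +1972 held 92.9% ± 2.8 of LSS reads in wild type and 85.6% ± 6.1 in R749H (SD, n = 5 and 4), a log2 odds difference of -1.09 ± 0.46 (limma adjusted p = 0.45). The mean position was 2017 ± 16 and 2064 ± 41 nt (exact permutation p = 0.0794), and with major isoforms alone the difference fell from 46.8 to 21.1 nt (exact permutation p = 0.159).

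In the tests across all genes, 0 of 6 of these genes were called for a shift about the median position (2 at an unadjusted p under 0.05, LSS and IDI1), where 0.0516% of all genes tested were called and 9.49% had an unadjusted p under 0.05, and 0 of their 9 tested sites for a change in share (1 at an unadjusted p under 0.05), where 0.0256% of all sites were called and 10.6% had an unadjusted p under 0.05. IDI1 had a log2 odds difference of -2.32 ± 0.69 (SE, limma adjusted p = 0.333), from 0 to 3 reads per library downstream of its division at +1161. Its site at +1161 held 69.0% ± 12.8 of the reads in wild type and 79.1% ± 3.7 in R749H. The DHCR7 site at +962 held 79.7% ± 9.4 and 78.1% ± 7.8, with the wild-type libraries between 68.0% and 92.9%. The FDFT1 sites at +56 and +351 held 21.7% ± 4.5 and 59.4% ± 5.9 in wild type and 19.6% ± 4.9 and 58.3% ± 3.0 in R749H. HMGCS1 and SREBF2 used 1 site each, with 99.1% ± 0.9 and 97.4% ± 0.7 of their reads in wild type and 99.2% ± 0.4 and 96.8% ± 0.6 in R749H.

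**Figure D4:**
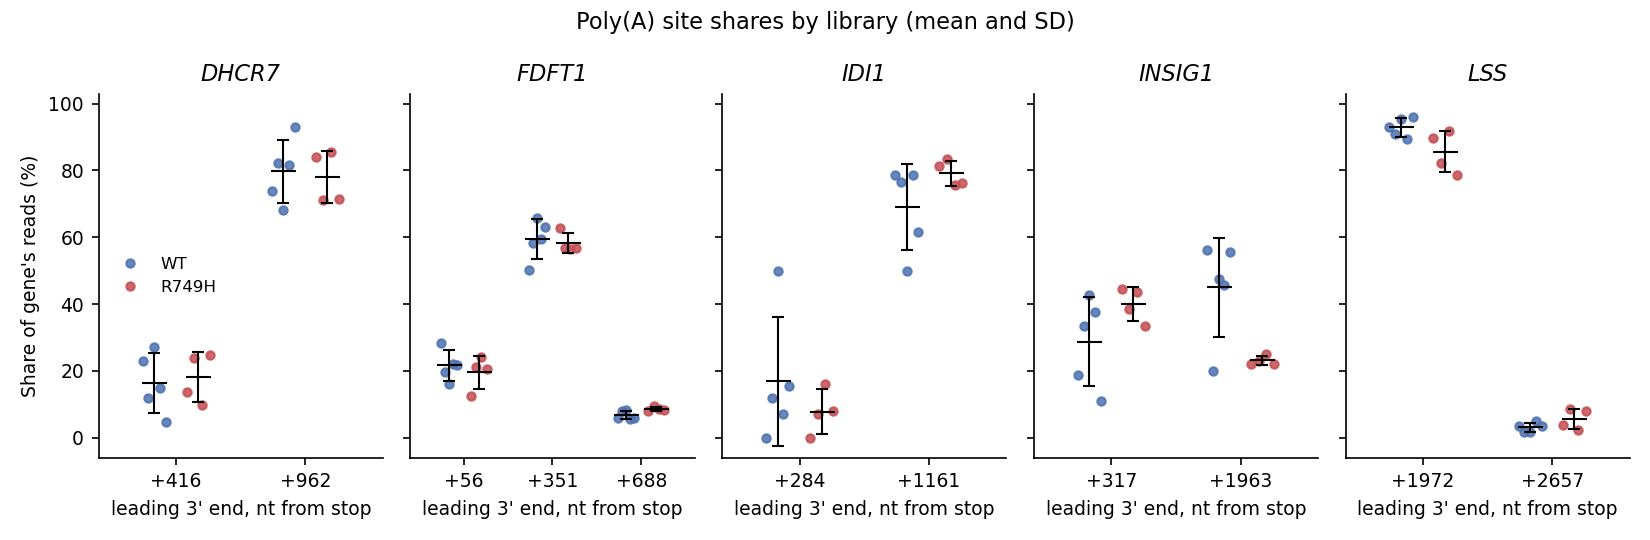
Share of a gene's reads, in percent, in each poly(A) site of the 5 genes with more than 1 site, named by the distance of the leading 3’ end from the stop codon, for wild-type (blue) and R749H (red) libraries, with the mean and SD in black (a lower SD bar can pass below 0). The INSIG1 site at +1963 lies at 22.2% to 25% in R749H and, apart from wild-type replicate 2 at 20.0%, at 45.8% to 56.3% in wild type.

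Clusters of at least 4 major isoforms no more than 4 nt apart occurred in FDFT1, HMGCS1 and SREBF2, and 0 of the 3 shifted with limma (0 at an unadjusted p under 0.05; over all clusters 0 of 984 were called and 4.57% had an unadjusted p under 0.05). In HMGCS1 the isoform at +1735 held 51.3% ± 2.8 of the cluster's reads in wild type and 46.3% ± 1.8 in R749H (SD, n = 5 and 4). The groups did not overlap, as for 1.63% of all isoforms in such clusters. As a share of all HMGCS1 reads, the same isoform held 46.5% ± 2.7 and 42.1% ± 2.0, and the groups overlapped. Every other isoform of the 3 clusters had overlapping groups as a share of its cluster. The R749H:wild-type ratio of the HMGCS1 isoforms was 1.20 at +1731 and +1733, 0.902 at +1735, 0.941 at +1737 and 1.12 at +1739. In SREBF2 the ratio was 0.876 at +1643, 0.983 at +1644, 1.27 at +1646 and 0.975 at +1647. In FDFT1 it was 1.07 at +351, 1.02 at +355, 0.759 at +357 and 0.932 at +358. None of the 3 clusters had a shift larger than the spread between libraries by limma.

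The sterol regulatory motif TCACNCCAC was searched for on both strands of RefSeq promoters (GRCh38.p14, 250 bases before to 50 after a start site). Of 35116 promoters, 1.13% held it, and 6 of the 8 genes had an entry, with 10 promoters in all. SQLE and FDFT1 had no entry. The motif was found in 1, a promoter of SREBF2, and is shown in capitals because this gene encodes the factor that binds such elements. Elements that differ from this sequence or lie outside the window were not searched for, so the other genes may still have such elements.
SREBF2 promoter, chr22:41832962-41832991, plus strand: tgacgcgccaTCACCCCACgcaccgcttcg

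Over the 9 libraries, the correlation between deviations from the group means had a median of 0.0441 over 21 pairs of genes, SQLE left out. It ranged from -0.756 to 0.659, as a description of libraries that differ in depth. The 6 pairs above 0.5 were SREBF2 with HMGCS1, FDFT1 and DHCR7, HMGCS1 with FDFT1 and LSS, and FDFT1 with DHCR7, and the lowest value was that of HMGCS1 with IDI1. The share of pairs above 0.5 among other genes is not given here, so shared regulation cannot be read from this count. The 5 genes most like the mean deviation of the 8 genes, among 4001 searched, were SNRPB2, RMDN3, SF3A3, C8orf59 and C5orf22, with Pearson's r of 0.885 to 0.917. Without the farthest libraries, wild-type replicate 2 and R749H replicate 3, r was 0.718 to 0.800 for these genes. When the mean was taken over the 5 genes with a mean of at least 50 reads, 0 of these 5 were among the most alike.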

How the data were processed

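3’ READS libraries of 5 wild-type and 4 R749H replicates were used, and 4 eNETseq libraries are not analysed here. The authors removed 4 random nt and leading Ts, truncated reads to 77 nt, mapped them to hg19 (with bowtie by the methods of the study, while the submitters' processing notes name Bowtie2 2.3.2), required As absent from the genome at the end of each read, and gave an end to the gene whose CCDS stop codon lay at most 5 kb upstream. The signal values, as deposited, hold the reads of each isoform after the authors set every replicate to 7 M and every pooled cell line to 25 M. Whole reads were recovered by dividing each library by the value of 1 read; 99.997% to 100% of values were whole within 0.0051 scaled reads, and pooled values equalled the sum of replicates.

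Levels were tested with limma 3.58.1 (trend, robust) on log2 RPM with TMM factors from edgeR 4.0.16, a prior count of 0.5 reads and filterByExpr. A fold change on this scale understates the change of low genes. The edgeR quasi-likelihood test on recovered reads called 2322 genes and DESeq2 1.42.0 called 2653. Shifts and site shares were tested with limma on log2 odds for genes with a mean of at least 20 reads, and mean positions by a two-sided exact permutation test. Benjamini-Hochberg adjustment ran over all features, with a threshold of 0.05. The scripts were tested on simulated data.

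The genes, lists and tests were chosen with earlier results of these data known. All 8 genes are named. Some genes of the synthesis and uptake lists are not reported here; this changes the counts, so no share or median of these lists is given. Pathway genes past the threshold are named, at most 10 by size, as are sites with at least 10% of a gene's pooled reads in either line and the 5 genes of highest likeness. Alternatives covered scaling, filters, prior counts, thinning, other tools, site and cluster definitions, a replicate block and each library left out. The study calls the replicates biological, but the labels do not say whether they came from separate cultures, so p-values measure the spread between these libraries.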

Additional observations from a re-analysis of the deposited data

Results flagged for a closer look

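Of 49 groups of values examined, 4 held a library whose gap to the next was above Dixon's critical value, and chance flags about 1 group in 20. The SREBF2 level of wild-type replicate 1 was 62.9 RPM, and the next wild-type library was at 98.5. The mean 3’ end of HMGCS1 in the same library was 1708 nt from the stop codon, and the next was at 1726 nt. The FDFT1 site at +351 held 62.8% of the gene's reads in R749H replicate 1, and the next was at 56.9%. The INSIG1 site at +1963 held 20.0% of the reads in wild-type replicate 2, and the next was at 45.8%.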

How the results depend on the processing

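IDI1 stayed higher and past the threshold under all 10 other settings (log2 1.43 to 1.78) and when each library was left out (1.43 to 1.98). SREBF2 passed with DESeq2 (0.52) and thinning (0.56), and was 0.17 with the authors' scaling alone and 0.35 without wild-type replicate 1. HMGCS1 passed as lower with the authors' scaling alone (-0.45). DHCR7 passed with RLE factors (0.63), DESeq2 (0.62) and the largest CCDS entry (0.64), and was 0.28 with the authors' scaling alone. With a library left out DHCR7 ranged from 0.46 to 0.76 and did not pass in 7 of 9 fits. The INSIG1 mean position was -312 nt with major isoforms alone and no longer passed. The LSS mean position was 21.1 nt with major isoforms alone, ranged from 33.7 to 59.2 nt with a library left out, and passed without wild-type replicate 4 (51.8 nt, exact permutation p = 0.0286). The causes were not tested.

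The 2238 genes called for level became 1461 to 2595 with a library left out, lowest without R749H replicate 2. The 4 genes called for a shift became 2 with division at the midpoint and 2 to 11 with a library left out, highest without R749H replicate 1. The 2 sites called for share became 11 with a mean of at least 50 reads and 0 to 8 with a library left out, highest without R749H replicate 1.

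The replicate numbers 1 to 4 did not pair the libraries (correlations of deviations -0.0708, 0.0506, 0.0161 and -0.0494). With the replicate block, DHCR7 passed (0.72, limma adjusted p = 0.0158), as it did with replicates 1 to 4 unpaired (0.72), an alternative chosen after seeing the data. The unpaired fit is the same fit as that without wild-type replicate 5 and is no separate result. The block left 0 genes called for a shift and 0 sites for share, against 2 and 0 without pairing in these libraries. INSIG1 and SQLE are limited by depth.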
